A study of Homo sapiens with 2 samples.

Results

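The genes described are 6 aldo-keto reductases (AKR1B1, AKR1B10, AKR1C1, AKR1C2, AKR1C3 and AKR1C4) and 3 aldehyde dehydrogenases (ALDH1A1, ALDH3A1 and ALDH3A2). They were taken by symbol from the gene entries of the deposited count table, and all 9 were found among its 57736 genes. The cells were A549, a human lung adenocarcinoma line labelled wild type, named in the series description as a VIM RFP line, with a red fluorescent reporter of vimentin. One library was labelled as TGF-beta-induced EMT (epithelial to mesenchymal transition) and 1 as given no treatment. Dose and duration of TGF-beta, and whether the cells were 1 clone, were not stated in the labels. Each library was made from 10 ng of total RNA by AmpliSeq Transcriptome, a kit that copies a short chosen stretch of each gene by multiplex PCR. With 1 library per group there is no test of the treatment and no replicate check. Intervals cover counting error alone and treat reads as independent. Reads from PCR without molecular identifiers are not independent, so the intervals may be too narrow even for that error.

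Aldo-keto reductases use NADPH to reduce aldehydes and ketones to alcohols, and aldehyde dehydrogenases use NAD or NADP to oxidise aldehydes to acids. Several of these genes are known targets of the transcription factor NRF2, and A549 is known for a mutated KEAP1, the protein that marks NRF2 for degradation. AKR1B1 is aldose reductase, which turns glucose into sorbitol, and AKR1B10 reduces retinal and lipid aldehydes. AKR1C1 to AKR1C4 are hydroxysteroid dehydrogenases. ALDH1A1 makes retinoic acid from retinal, ALDH3A1 oxidises medium-chain and aromatic aldehydes, and ALDH3A2 oxidises fatty aldehydes.

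The TGF-beta library held 597133 rounded counts and the untreated one 674784. Levels are CPM, counts per 1e6 counts of a library total scaled by the trimmed mean of M-values (TMM). A count of 0 was set to a floor of 3 counts, 5.31 CPM with TGF-beta and 4.21 CPM without, and a ratio made with it is a bound. The yield of an amplicon differs between genes and gene length does not correct it, so levels were not compared between genes. Markers of the labelled transition were mixed, and every direction below rests on the labels as given. VIM, the vimentin gene, had 56 counts in the library labelled TGF-beta-induced EMT against 452, and S100A4, another mesenchymal marker, had 9 against 193, both opposite to that label. COL1A1, a collagen gene, had 356 against 196 (log2 ratio 1.20, 0.94 to 1.46, the 95% counting interval after the ratio here and below), and the epithelial keratins KRT7 (32 against 179) and KRT8 (16 against 53) were lower, all in the direction of the label. The summed level of 10 lung epithelial markers was 204 CPM with TGF-beta and 423 CPM without (SCGB1A1 at 0 in both), a sum made mostly of keratins. Of 7 markers past 5 CPM 2 were at least 2-fold lower and 3 higher, beside 26.7% and 22% of all genes past it. The median log2 ratio of the 7 was 0.16. Those higher were EPCAM (7 against 4), CDH1 (4 against 1) and SFTPB (5 against 1), all with intervals that include equality. KRT19 was level at 45 against 51. Of 9 mesenchymal markers past 5 CPM 3 were lower (VIM, S100A4 and SNAI2, the last at 0 counts against 11) and 1 higher (COL1A1). The summed level of all 10 mesenchymal markers was 809 CPM with TGF-beta and 1280 CPM without. For other cell types it was 103 CPM with TGF-beta and 99.6 CPM without over 7 fibroblast markers (LUM at 0 in both), 24.8 CPM with TGF-beta and 54.7 CPM without over 7 leukocyte markers (LYZ at 0 in both), and 14.2 CPM with TGF-beta and 12.6 CPM without over 6 hepatocyte markers (CYP3A4 and ADH1B at 0 in both). GAPDH, a glycolytic enzyme often used as a reference, was 19-fold lower with TGF-beta. The libraries also differed in how counts were spread over genes. With TGF-beta 1965 genes had 20 counts or more, and 3157 without. The 10 genes with most counts held 43.6% of the library with TGF-beta and 32.6% without. The part of these differences in the results was not tested.

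The AKR1C genes are near copies, which bears on how their counts can be read. Exon 2 is shown because it held most of the AKR1C2 counts. The letters are those of GENCODE v29 transcripts (build GRCh38), 168 coding bases in each gene, at chr10:4965914-4966081 (plus strand) for AKR1C1, chr10:5001514-5001681 (minus strand) for AKR1C2, chr10:5096410-5096577 (plus strand) for AKR1C3 and chr10:5200181-5200348 (plus strand) for AKR1C4. Capitals mark the 22 positions at which the 4 genes are not all alike.
AKR1C1: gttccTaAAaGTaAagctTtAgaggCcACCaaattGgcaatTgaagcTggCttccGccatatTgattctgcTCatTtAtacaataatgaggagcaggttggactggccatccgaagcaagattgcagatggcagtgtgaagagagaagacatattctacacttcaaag
AKR1C2: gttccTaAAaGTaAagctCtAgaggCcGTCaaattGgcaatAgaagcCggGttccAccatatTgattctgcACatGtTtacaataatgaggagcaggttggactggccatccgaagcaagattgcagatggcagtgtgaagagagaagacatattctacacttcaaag
AKR1C3: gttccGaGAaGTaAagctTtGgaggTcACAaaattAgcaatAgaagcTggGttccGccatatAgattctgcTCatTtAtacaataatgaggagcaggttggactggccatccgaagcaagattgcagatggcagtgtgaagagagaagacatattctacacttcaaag
AKR1C4: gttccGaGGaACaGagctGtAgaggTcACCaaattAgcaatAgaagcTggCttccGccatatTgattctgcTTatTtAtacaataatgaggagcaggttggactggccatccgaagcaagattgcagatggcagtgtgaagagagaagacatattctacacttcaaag

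All 22 variable positions lay in the first 78 bases, and the last 90 bases were identical in all 4 genes. AKR1C2 had a base of its own at 8 positions, AKR1C4 at 6, AKR1C3 at 3 and AKR1C1 at 1. A read within the last 90 bases matches all 4 genes. AKR1C1 and AKR1C3 shared a run of 105 bases, so a read that reaches somewhat further can still match both. Over the whole coding sequence AKR1C1 and AKR1C2 shared 953 of 972 bases. Identity was 91.5% between AKR1C1 and AKR1C3 and 88.7% between AKR1C1 and AKR1C4. Exons 4, 8 and 9 were identical in AKR1C1 and AKR1C2, and exon 7 in AKR1C2 and AKR1C3.

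**Figure D1:**
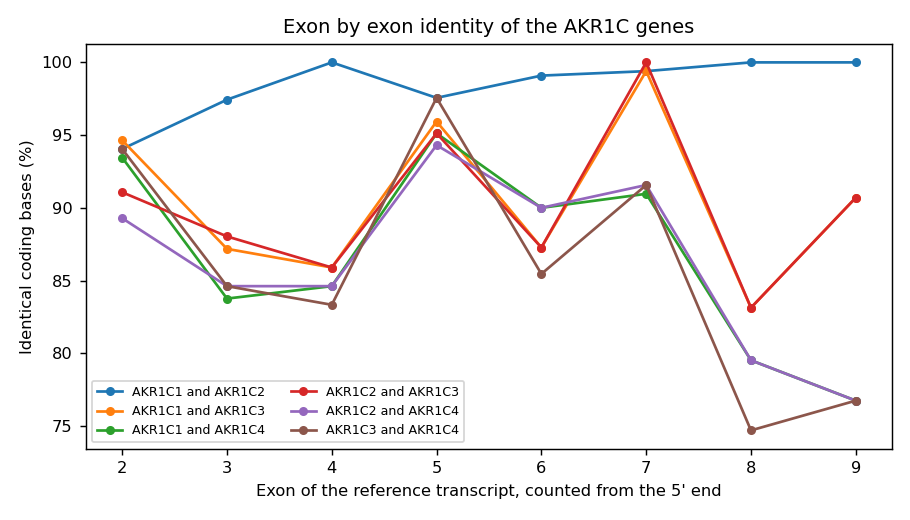
Percent of identical coding bases (y axis) in each of exons 2 to 9 of the reference transcripts (x axis), 1 line per pair of AKR1C genes. The line of AKR1C1 and AKR1C2 reaches 100% at exons 4, 8 and 9 and is at its lowest, 94%, at exon 2.

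The other paralogues were easier to tell apart. For AKR1B1 and AKR1B10 exon 5 is shown (123 coding bases), which lies in the region with most AKR1B1 counts, at chr7:134448997-134449119 (minus strand) and chr7:134536650-134536772 (plus strand) of GRCh38. Capitals mark the 24 positions that differ.
AKR1B1: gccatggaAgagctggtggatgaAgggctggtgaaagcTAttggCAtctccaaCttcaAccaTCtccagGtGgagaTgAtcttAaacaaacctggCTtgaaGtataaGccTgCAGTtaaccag
AKR1B10: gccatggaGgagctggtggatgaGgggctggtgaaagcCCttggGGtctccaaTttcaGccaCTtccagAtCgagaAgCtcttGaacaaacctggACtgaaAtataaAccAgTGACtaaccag

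For ALDH3A1 and ALDH3A2 exon 7 is shown (167 coding bases), which held most ALDH3A1 counts, at chr17:19739508-19739674 (minus strand) and chr17:19663333-19663499 (plus strand). Capitals mark the 58 positions that differ.
ALDH3A1: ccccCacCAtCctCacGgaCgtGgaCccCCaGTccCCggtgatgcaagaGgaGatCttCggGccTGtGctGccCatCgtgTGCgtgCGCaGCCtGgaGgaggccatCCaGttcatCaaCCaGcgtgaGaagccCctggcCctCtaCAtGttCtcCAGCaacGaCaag
ALDH3A2: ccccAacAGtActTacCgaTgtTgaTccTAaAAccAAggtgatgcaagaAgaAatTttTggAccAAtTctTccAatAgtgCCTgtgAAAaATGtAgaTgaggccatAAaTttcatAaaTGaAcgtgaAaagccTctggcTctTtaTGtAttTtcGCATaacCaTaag

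The longest identical run was 14 bases in the AKR1B pair and 12 in the ALDH3A pair, against 90 for AKR1C1 and AKR1C2 in exon 2. Coding identity was 76.2% in the AKR1B pair and 62.8% in the ALDH3A pair. The deposited gene values were also checked for fractions. Of 18 values (9 genes in 2 libraries) 12 were whole within 0.001. Of the 8 AKR1C values 7 were whole, the exception being AKR1C2 without TGF-beta at 162.5. The other AKR1C genes were whole in that library, so the gene values show no fractional split among the 4 genes. AKR1B1 and ALDH3A1 were fractional in both libraries and AKR1B10 in the untreated one. How the authors placed reads that match several genes is not stated in the labels.

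With TGF-beta 5 of the 9 genes were at least 2-fold lower (AKR1B1, AKR1B10, AKR1C1, AKR1C2 and ALDH1A1), and 0 were at least 2-fold higher. AKR1C3 was level, ALDH3A1 was slightly higher, and AKR1C4 and ALDH3A2 had too few counts for a ratio. Among all 15401 genes with 5 CPM or more in 1 library, 26.7% were lower by this rule and 22% higher. Among the 5341 genes with 20 CPM or more the shares were 36% and 18.5%. Of the 9 genes 7 passed either filter, and the median of their log2 ratios was -2.56, beside 0.01 and -0.16 for all genes past the filters. In bulk RNA fewer cells that express a gene and less RNA per cell cannot be told apart.

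**Figure D2:**
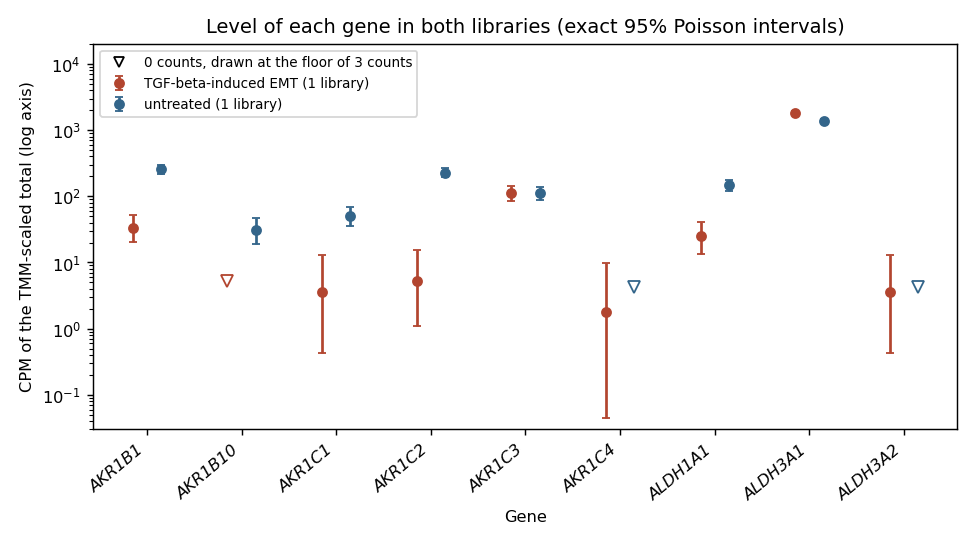
Level of each of the 9 genes (x axis) in CPM of the TMM-scaled total (y axis, log scale), 1 point per library with its exact 95% Poisson interval; open triangles stand for 0 counts and are drawn at the floor of 3 counts. The libraries are apart for AKR1B1, AKR1C1, AKR1C2 and ALDH1A1 and together for AKR1C3, and heights of different genes are not comparable.

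AKR1B1 (hg19 chromosome 7, 134127102 to 134144036, minus strand) had 19 counts with TGF-beta and 183 without, or 33.6 CPM (20.2 to 52.5) and 257 CPM (221 to 297). The intervals did not overlap. Its log2 ratio was -2.93 (-3.70 to -2.25), a 7.63-fold lower level. AKR1B10 (chromosome 7, 134212344 to 134226160, plus strand) nearby had 0 counts against 22, the latter 30.9 CPM (19.3 to 46.7). It was at least 5.81-fold lower by the floor, and the interval of its log2 ratio ended at -2.12. Both AKR1B genes were thus lower or not detected with TGF-beta.

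Counts along AKR1B1 were not all lower. Overlapping exons of a gene's transcripts were merged into regions numbered from the 5′ end, and deposited exon counts were summed in each. Region 4 (134133749 to 134134549), with exons 4 and 5, held 9.86 counts with TGF-beta and 144 without, and region 5 (134133139 to 134133245), exon 6, held 2.34 and 37.1. Region 7 (134129479 to 134130072) holds coding exon 9, but 511 of its 594 bases lie outside that exon. It went the other way with 7 counts against 1, a log2 ratio of 3.14 (0.18 to 8.64). Those 7 counts were 36.5% of AKR1B1 with TGF-beta. Outside region 4 the log2 ratio of AKR1B1 was -1.78 (-3.01 to -0.71). For AKR1B10 86.1% of the untreated counts lay in the last exon.

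The AKR1C genes lie side by side on chromosome 10. AKR1C1 (4934796 to 5025475, plus strand), which inactivates progesterone, had 2 counts with TGF-beta and 36 without, or 3.54 CPM (0.429 to 12.8) and 50.5 CPM (35.4 to 69.9). Its log2 ratio was -3.83 (-6.93 to -1.88). AKR1C2 (5029967 to 5060223, minus strand), which inactivates dihydrotestosterone, had 3 against 162, or 5.31 CPM (1.09 to 15.5) and 227 CPM (194 to 265). Its log2 ratio of -5.42 (-7.71 to -3.85) was the lowest of the 7 genes with a ratio. Both genes lay below their untreated intervals.

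AKR1C3 (5077546 to 5149878, plus strand), which makes testosterone and prostaglandin F, had 63 counts with TGF-beta and 79 without, or 111 CPM (85.7 to 143) and 111 CPM (87.7 to 138). Its log2 ratio was 0.01 (-0.49 to 0.51), an interval that meets neither that of AKR1C1 nor that of AKR1C2. AKR1C4 (5237425 to 5260912, plus strand), an enzyme of liver bile acid synthesis, had 1 count against 0, and the exact interval of the 0 ends at 5.17 CPM. Of 12 pseudogene-type entries of the AKR1B and AKR1C genes 7 were deposited at 0 in both libraries. AKR1C7P had 16 counts with TGF-beta and 2 without.

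Summing the 4 AKR1C genes removes the effect of dividing reads among these 4 only. Reads placed on other entries, such as AKR1C7P, or dropped for matching several genes are not in the sum. The sum was 69 counts with TGF-beta and 277 without, or 122 and 388 CPM. It was 3.18-fold lower, with a log2 ratio of -1.67 (-2.07 to -1.28). Its make-up differed. The share of AKR1C3 was 91.3% (82% to 96.7%) with TGF-beta and 28.5% (23.3% to 34.2%) without, by exact binomial intervals. The share of AKR1C2 was 4.35% (0.906% to 12.2%) and 58.5% (52.4% to 64.3%). Most AKR1C3 counts lay in 1 exon, described below. Outside the main exon regions AKR1C3 held 3.5 counts with TGF-beta and 22.5 without, and AKR1C2 held 0.24 and 13.9. Leaving out AKR1C3 brought the log2 ratio of the sum to -4.71, and leaving out AKR1C2 brought it to -0.47.

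The level value of AKR1C3 rests on 1 exon. Region 6 (5135985 to 5136720), a first exon with 652 bases before the coding start and 84 coding bases, held 59.5 counts with TGF-beta and 56.5 without, 94.4% and 71.5% of the gene. In GRCh38 this exon begins 621 bases upstream of a RefSeq start of AKR1C3. Later exons had fewer counts with TGF-beta. Region 13 (5147467 to 5147869), with exon 8, held 2.18 and 9.54 counts, and its interval of -5.22 to 0.24 on the log2 scale includes equality. Region 14 (5149653 to 5149878), exon 9, held 1.32 and 11.96, a log2 ratio of -3.25 (-8.67 to -0.49). Outside region 6 the log2 ratio of AKR1C3 was -2.19 (-4.18 to -0.64).

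AKR1C2 was counted mostly in exon 2 and AKR1C1, like AKR1C3, mostly in exon 1. Region 10 of AKR1C2 (5043706 to 5043873), the exon 2 shown above, held 2.76 counts with TGF-beta and 149 without, 92.1% and 91.4% of the gene. Its region 11, with exons 3 and 4, held 0.237 and 12.9. AKR1C1 without TGF-beta had 27.3 counts in region 6 (5005445 to 5005720), exon 1, and 7.67 in region 8, with exon 2. With TGF-beta exon 1 of AKR1C1 was at 0, and the 2 counts lay in region 8 and in the last exon. Outside region 6 the log2 ratio of AKR1C1 was -1.83, and its interval of -5.08 to 0.44 includes equality. Outside region 10 AKR1C2 was at least 3.7-fold lower, from 0 rounded counts against 14.

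**Figure D3:**
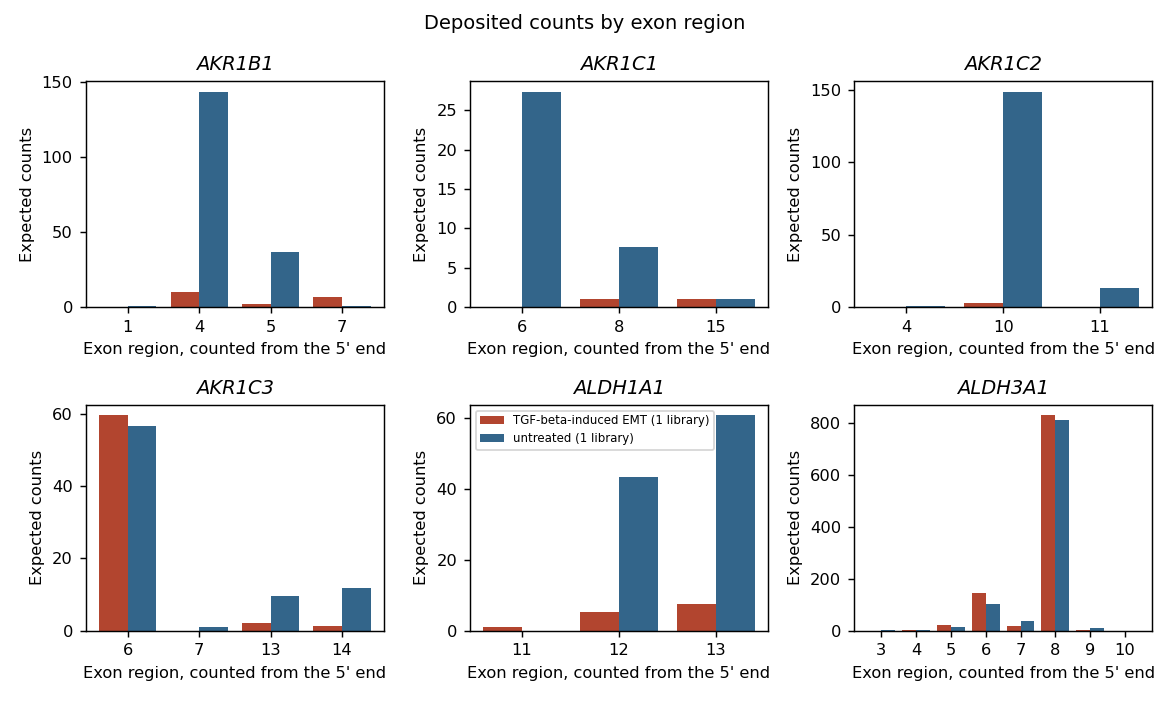
Deposited expected counts (y axis, not scaled to library totals, a separate scale in each panel) in the exon regions that held counts (x axis, numbered from the 5′ end) of 6 genes, 1 bar per library. AKR1C3 has like bars in region 6 and lower TGF-beta bars in regions 13 and 14, and ALDH3A1 has like bars in region 8.

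The aldehyde dehydrogenases differed from one another. ALDH1A1 (hg19 chromosome 9, 75515578 to 75695358, minus strand) had 14 counts with TGF-beta and 104 without, or 24.8 CPM (13.5 to 41.6) and 146 CPM (119 to 177). It was 5.89-fold lower, and its log2 ratio was -2.56 (-3.48 to -1.75). The counts lay mostly in adjacent coding exons, with fractional values in both. A read that crosses their junction may be divided between them, so the 2 ratios below may not be separate measurements. Region 12 (75531836 to 75532020), exon 9, held 5.34 and 43.3 counts, a log2 ratio of -2.77 (-4.46 to -1.44). Region 13 (75526874 to 75527038), exon 10, held 7.66 and 60.7, a log2 ratio of -2.59 (-3.87 to -1.53).

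ALDH3A1 (chromosome 17, 19641297 to 19652256, minus strand) had 1025 counts with TGF-beta and 994 without, or 1814 CPM (1705 to 1929) and 1394 CPM (1309 to 1483). Its log2 ratio was 0.38 (0.25 to 0.51), and of the 7 genes with a ratio it alone had an interval above equality. Scaling makes up much of this value, since equal counts give 0.34. With DESeq2 size factors it was 0.16 and with total counts 0.22. ALDH3A1 also held most counts of the 9 genes. Their sum was 1998 CPM with TGF-beta and 2216 CPM without, a log2 ratio of -0.15 (-0.26 to -0.04). Without ALDH3A1 the other 8 genes summed to 184 and 822 CPM, a log2 ratio of -2.16 (-2.47 to -1.86).

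Region 8 of ALDH3A1 (19642821 to 19642987), the exon 7 shown above, held 830 counts with TGF-beta and 813 without, 81.4% and 82.3% of the gene. Region 6 (19644406 to 19644669), with exon 5, held 144 and 104, a log2 ratio of 0.81 (0.43 to 1.18). The exon after the main one differed in direction. Region 9 (19642309 to 19642408), exon 8, held 1.25 counts with TGF-beta and 11.6 without, a log2 ratio of -3.25 (-8.67 to -0.49). Region 7, with exon 6, held 19.5 and 36.5, and its interval of -1.47 to 0.25 includes equality. Outside region 8 the log2 ratio of ALDH3A1 was 0.45 (0.14 to 0.75). ALDH3A2 (19551449 to 19580911, plus strand), on the same chromosome, had 2 counts with TGF-beta and 0 without, so no ratio is given.

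**Figure D4:**
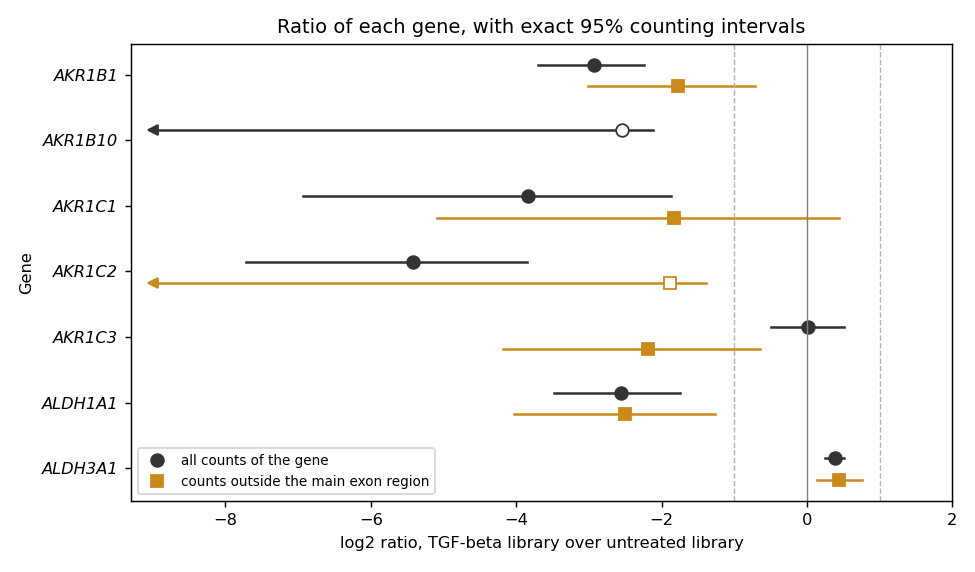
Log2 ratio, TGF-beta over untreated (x axis), for the 7 genes with a ratio (y axis), over all counts of the gene (circles) and over counts outside its main exon region (squares), with exact 95% counting intervals. Open symbols are bounds from a count of 0, arrows mark intervals without a lower end, dashed lines mark 2-fold, and AKR1B10 has no square because both counts there are at or under the floor. AKR1C3 lies at 0.01 by its circle and -2.19 by its square, while ALDH3A1 lies above 0 by both.

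Over counts outside each gene's main region 6 of the 9 genes had a ratio, and 5 were at least 2-fold lower (AKR1B1, AKR1C1, AKR1C2, AKR1C3 and ALDH1A1) and 0 higher. Counted the same way, 28.5% of 6085 genes were lower and 20.4% higher. AKR1C3 took the place of AKR1B10, whose 0 and 3 counts there gave no ratio. A read that crosses from the main region into the next exon may be counted in part in both. Such outside counts are not a separate measurement. Region 11 of AKR1C2 held 7.89% of the gene with TGF-beta and 7.95% without, and region 12 of ALDH1A1 held 38.1% and 41.7%. Whether these came from such reads was not tested.

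Of 10 further genes of the aldo-keto reductase family 7 passed 5 CPM, 2 of them at least 2-fold lower and 2 higher. Over all genes past 5 CPM the shares were 26.7% and 22%. The median of the 7 was 0.34. AKR1A1, a broad aldehyde reductase, had 67 counts against 47 (log2 ratio 0.85, 0.29 to 1.42). KCNAB3, a potassium channel subunit of this protein fold, had 22 against 6 (2.21, 0.86 to 3.80). Of 16 further aldehyde dehydrogenases 14 passed, 4 lower and 1 higher, with a median of -0.08. Only ALDH1L1 (11 against 23) and ALDH3B2 (23 against 23) reached 20 counts in that list. Of the aldo-keto list only AKR1A1 and KCNAB3 reached 20 counts, against 7 of the 9 genes, and its median equals the value of equal counts. The medians of these lists lay nearer to that of all genes than the median of the 9 genes did. With so few counts, and genes and lists chosen with earlier results known, this does not set the 9 genes apart from their families.

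**Figure D5:**
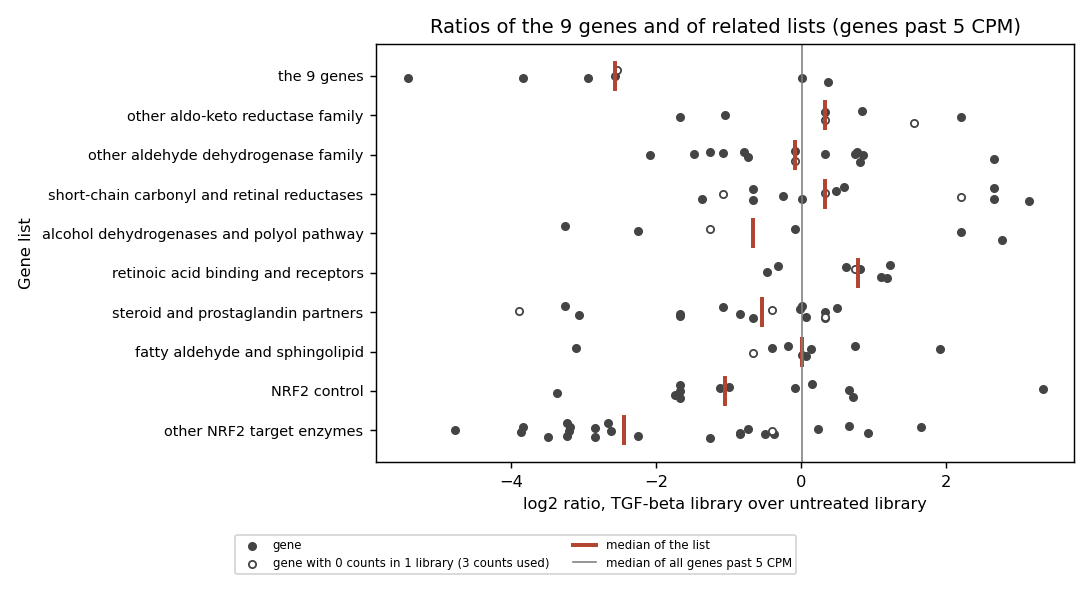
Log2 ratio (x axis) of each gene past 5 CPM in the 9 genes and in 9 related lists (y axis), 1 point per gene with a small vertical scatter, open where 1 library had 0 counts and 3 counts were used, with the median of each list as a bar and the median of all genes as a line. The medians of the 9 genes (-2.56) and of other NRF2 target enzymes (-2.43) lie lowest.

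The regulators of these enzymes came next. Of 12 NRF2 control genes 6 were at least 2-fold lower and 1 higher, beside 26.7% and 22% of all genes past 5 CPM. Their median was -1.05, and 5 of the 12 reached 20 counts in 1 library. NFE2L2, the NRF2 gene, had 2 counts against 8 and KEAP1 5 against 4, and the intervals of both (-4.94 to 0.66 and -1.56 to 2.99) include equality. MAFK, a small MAF partner of NRF2, had 3 against 39 (-3.36, -5.70 to -1.71), and GSK3B, a kinase, had 5 against 21 (-1.73, -3.50 to -0.29). Among other NRF2 target enzymes 14 of 24 were lower, 1 higher and 9 between, and their median was -2.43. GCLM held most of the list's counts with TGF-beta and had 1765 against 1404 (0.67, 0.56 to 0.77). GSR had 162 against 174 (0.23, -0.09 to 0.55). HMOX1, heme oxygenase, had 3 against 55 (-3.86, -6.18 to -2.24), and FTH1, ferritin heavy chain, had 13 against 449 (-4.77, -5.69 to -3.99).

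Partners of the AKR1C enzymes in steroid and prostaglandin metabolism had 6 of 16 genes lower and 0 higher, with a median of -0.53. The shares over all genes past 5 CPM were 26.7% lower and 22% higher. PTGS2, the inducible cyclooxygenase upstream of AKR1C3, had 2 counts against 21 (-3.06, -6.19 to -1.02), and PTGES3, a prostaglandin E synthase and HSP90 co-chaperone, had 0 against 56 and was at least 14.8-fold lower. Fatty aldehyde and sphingolipid partners of ALDH3A2 had 1 of 9 lower, with a median of 0.01. The 1 tallied as higher was CYP4F12 at 3 against 1 counts, too few for a ratio. SPHK1, which makes sphingosine 1-phosphate, had 5 against 54 (-3.10, -4.78 to -1.79).

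Retinoid genes belong to the pathway of ALDH1A1. Of 8 genes of retinoic acid binding, breakdown and receptors 0 were at least 2-fold lower and 3 higher, beside 26.7% and 22% of all genes, and the median was 0.79. RXRA, the partner of retinoic acid receptors, had 28 counts against 15 (1.24, 0.28 to 2.25), and CYP26C1, which breaks retinoic acid down, had 29 against 17 (1.11, 0.19 to 2.06). Short-chain carbonyl and retinal reductases had 2 of 13 lower and 4 higher, with a median of 0.34. The 4 higher had at most 11 counts in either library. DCXR, which reduces xylulose, alone reached 20 counts in that list and had 8 against 26 (-1.36, -2.72 to -0.18). Alcohol dehydrogenases and polyol pathway genes had 3 of 6 lower and 2 higher, with a median of -0.66, and only HAGH reached 20 counts. HAGH, a glyoxalase, had 319 against 59 (2.77, 2.37 to 3.20), and SORD, which follows AKR1B1 in the polyol pathway, had 1 against 12 (-3.25, -8.67 to -0.49).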

How the data were processed

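RNA was measured in 2 AmpliSeq libraries of A549 cells. The authors deposited expected counts, which can be fractional and are not normalized, per gene, transcript and exon; gene and exon entries were used. Coordinates are hg19, per the submitters' processing notes, which also name DESeq without a role. No label or header names the aligner, the counting program or its strand setting, and amplicon positions were not used here, so genes that overlap on opposite strands may share reads.

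Counts were rounded (0.5 upward) to 597133 and 674784 and scaled by TMM factors of 0.946 and 1.06 (edgeR 4.0.16, R 4.3.3). Log2 ratios are TGF-beta over untreated with no pseudocount and a 0 set to 3 counts. Their intervals are exact 95% Clopper-Pearson, those of CPM exact 95% Poisson. No ratio is given where both counts were at most 3, but list tallies hold such genes past 5 CPM, and 3 against 0 then equals the value of equal counts. The ratio code was tested on simulated data. Alternatives used DESeq2 1.42.0 size factors, total counts, upper quartile, totals without the 10 largest genes, other filters, log2(CPM + 1), no rounding, and counts outside the main exon region. Exon identities came from GENCODE v29 with Biopython 1.88.

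Genes and lists were chosen with earlier results of these data known. Named were all 9 genes, GAPDH and VIM, and of each list up to 2 genes per direction that were at least 2-fold apart, with 20 counts in 1 library and an interval off equality. AKR1A1, AKR1C7P, ALDH1L1, ALDH3B2, CDH1, COL1A1, CYP4F12, EPCAM, GCLM, GSR, KEAP1, KRT19, KRT7, KRT8, NFE2L2, S100A4, SFTPB, SNAI2 and SORD were chosen after their values were seen.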

Additional observations from a re-analysis of the deposited data

How the results depend on the processing

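Against TMM, every log2 ratio moved by -0.22 with DESeq2 size factors, -0.16 with total counts, 0.08 with the upper quartile and 0.10 with totals that leave out the 10 genes with most counts. Under each of the 9 alternatives 5 genes were at least 2-fold lower and 0 higher. Scaling shifts of that size could not bring the 5 lower genes, at -2.54 or below, within 2-fold. Outside the main exon region AKR1C3 took the place of AKR1B10, and those counts may be parts of reads also counted inside it. Of 62 single-gene values 56 stayed within the interval of the reported value, 6 lay outside it (ALDH3A1 with DESeq2 size factors and total counts, and AKR1B1, AKR1C1, AKR1C2 and AKR1C3 outside the main exon region) and 0 of those at least 2-fold apart changed sign. A change of filter cannot alter a single-gene ratio, so the values under other filters were among the 56 in advance. AKR1C3, reported at 0.01, took either sign, from -2.19 to 0.11. The log2 ratio of the AKR1C sum was -2.60 outside the main exon regions, -0.47 without AKR1C2 and -4.71 without AKR1C3. Its level outside the main exon regions, where fewer reads count, was 10.6 CPM with TGF-beta and 64.5 CPM without, and with the smaller totals that leave out 10 genes it was 209.8 and 621 CPM. No library could be left out, and no paired analysis was possible because each group has 1 library. Depth left AKR1B10 without a ratio outside its main region, and AKR1C4 and ALDH3A2 without one at all.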
